A study of Mus musculus with 6 samples.

Results

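TGF-beta and activin are secreted growth factors of the same superfamily. The 10 genes described here encode the TGF-beta ligands (Tgfb1, Tgfb2 and Tgfb3), their receptors (Tgfbr1, Tgfbr2 and Tgfbr3), the activin subunits (Inhba and Inhbb), the activin-binding protein follistatin (Fst) and a type I receptor of activin and nodal (Acvr1c). They were taken by gene symbol from a list drawn up with earlier results of these data known, and all 10 were found among the 17924 genes of the table. RNA-seq was performed on fibroblasts from the dorsal skin of newborn (P0) C57BL/6J mice that had been kept in adipocyte differentiation medium for 14 days. The 3 CTL libraries came from Pdgfra-Cre+ mice with a floxed and a normal Nelfb allele (fl/wt) or with normal alleles alone (wt/wt), and which of these each library had was not given. The 3 Nelfb-/- libraries came from Nelfb fl/fl Pdgfra-Cre+ mice, so that all 6 libraries carried the Cre. As Cre was driven by Pdgfra, a gene of mesenchymal progenitors, cells in the culture that never expressed Pdgfra would keep Nelfb. Nelfb encodes a subunit of the negative elongation factor, which holds RNA polymerase II shortly after it starts transcription. The study describes the samples as biological triplicates, and whether a library held cells of 1 mouse or of several was not given, so p-values measure the spread between these libraries.

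TGF-beta is secreted in a latent form that is held by latency proteins and freed by integrins and proteases. The free ligand joins a type II receptor (Tgfbr2) to a type I receptor (Tgfbr1), with betaglycan (Tgfbr3) as a coreceptor, and the type I receptor phosphorylates Smad2 and Smad3, which enter the nucleus with Smad4. Activins, dimers of inhibin beta subunits, use their own receptors and the same Smads, and follistatin binds and neutralises them. TGF-beta is known as an inhibitor of adipocyte differentiation and as an inducer of matrix genes in fibroblasts, and Acvr1c, also called ALK7, is known for its high expression in fat cells.

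The depth on the listed genes was 17.2 to 29.4 M reads a library (M, 1e+06), at which 3 reads were worth 0.102 to 0.175 CPM (counts per 1e+06 reads), and the 10 genes each had 211 to 12657 reads. Nelfb itself was at 17.3, 19.6 and 22.3 CPM in CTL and at 5.50, 3.90 and 5.55 CPM in Nelfb-/- cells, and fell by 1.99 on the log2 scale (SE 0.22, limma adjusted p = 0.0050). CTL replicate 3 correlated with the other CTL libraries at 0.940 and 0.942, whereas these correlated with each other at 0.985 (Pearson's r of log2 values across genes, which are not independent). In the same way Nelfb-/- replicate 1 correlated with the other Nelfb-/- libraries at 0.930 and 0.945, whereas these reached 0.988, so calls that turn on either library are given with and without it. The labelled cell types were checked by their defining markers, with Adipoq at 698 to 1857 CPM in CTL and at 488 to 802 CPM in Nelfb-/- cells, and Pdgfra at 219 to 444 CPM in CTL and at 476 to 509 CPM in Nelfb-/- cells. The 8 adipocyte markers summed to 23618 to 39658 CPM in CTL (lowest in replicate 3) and 15816 to 24132 CPM in Nelfb-/- cells, and 1 of them was called higher (Lep, at 0.180 to 2.04 CPM in CTL and 10.3 to 33.0 CPM in Nelfb-/- cells). The log2 fold change was below 0 in 6 of the 8, none of which was called, and 2 of these (Adipoq and Plin1) were lower at an unadjusted p under 0.05. The 6 dermal fibroblast markers, none of which was called by limma (2 were higher at an unadjusted p under 0.05), summed to 3731 to 13603 CPM in CTL and 6248 to 22449 CPM in Nelfb-/- cells. Between 76.1% and 92.4% of this sum came from Col1a1 and Col1a2, and the other 4 markers summed to 945, 892 and 1216 CPM in CTL and to 1164, 1554 and 1699 CPM in Nelfb-/- cells. Dcn, another of the 6, was lowest in CTL replicate 3 (467, 501 and 310 CPM in CTL). Several markers of other cells were called higher in Nelfb-/- cells, as were 7.58% of all genes tested. These were 7 of 8 macrophage markers (206 to 743 CPM summed in CTL, 2052 to 6453 CPM in Nelfb-/- cells), 3 of 3 tested Schwann markers (41.2 to 74.3 CPM, then 273 to 362 CPM), 2 of 2 tested skeletal muscle markers (2.52 to 3.65 CPM, then 13.5 to 19.0 CPM), 2 of 5 tested keratinocyte markers (3.29 to 3.55 CPM, then 7.92 to 19.3 CPM) and 4 of 5 melanocyte markers, whose sums overlapped (48.6 to 73.7 CPM, then 49.5 to 163 CPM) through Mitf, the marker not called. Without Mitf the melanocyte sum was 1.22 to 1.43 CPM in CTL and 27.9 to 67.2 CPM in Nelfb-/- cells. The melanocyte markers Tyrp1 and Mlana were at 0 in CTL replicates 1 and 2, the muscle marker Myod1 was at 0 in CTL replicates 1 and 3, and the mast cell markers Cpa3, Cma1 and Tpsb2 were at 0 in CTL replicate 1 and did not exceed 1.80 CPM in any library. None of the 4 tested endothelial and 5 pericyte markers was called by limma (1 of each was higher and 1 pericyte marker lower at an unadjusted p under 0.05). In such bulk cultures, fewer cells of a type and less RNA per cell cannot be told apart.

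The stretches of 250 bases before the start of Tgfb1, Tgfb2, Tgfbr1 and Inhba are shown because these genes differ in their start regions, and because Tgfb1, Tgfbr1 and Inhba were higher in every Nelfb-/- library while Tgfb2 was not. They are from RefSeq (GRCm38.p6), read 5′ to 3′ on the gene's strand, and capitals mark 3 sets of letters that were searched on both strands, TATAAA (the TATA box), GGGCGG (the GC box, CCGCCC on the other strand) and CAGACA (a Smad-binding sequence). They lie at chr7:25686752-25687001 (plus strand) for Tgfb1, chr1:186705990-186706239 (minus strand) for Tgfb2, chr4:47352972-47353221 (plus strand) for Tgfbr1 and chr13:16011601-16011850 (plus strand) for Inhba.
Tgfb1: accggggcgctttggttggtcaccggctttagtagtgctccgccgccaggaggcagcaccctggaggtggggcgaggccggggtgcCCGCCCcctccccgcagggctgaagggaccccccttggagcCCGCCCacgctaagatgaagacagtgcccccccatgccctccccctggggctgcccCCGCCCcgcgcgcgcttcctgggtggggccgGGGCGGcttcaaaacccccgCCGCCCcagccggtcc
Tgfb2: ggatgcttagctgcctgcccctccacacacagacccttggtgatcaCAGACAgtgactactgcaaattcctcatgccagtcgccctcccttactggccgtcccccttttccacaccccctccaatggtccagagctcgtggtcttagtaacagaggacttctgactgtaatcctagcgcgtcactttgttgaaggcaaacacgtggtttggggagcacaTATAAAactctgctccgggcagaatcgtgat
Tgfbr1: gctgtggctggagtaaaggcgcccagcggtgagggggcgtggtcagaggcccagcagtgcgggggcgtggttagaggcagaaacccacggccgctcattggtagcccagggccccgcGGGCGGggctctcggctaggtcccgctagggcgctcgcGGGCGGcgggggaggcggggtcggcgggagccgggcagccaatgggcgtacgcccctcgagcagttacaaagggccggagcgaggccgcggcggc
Inhba: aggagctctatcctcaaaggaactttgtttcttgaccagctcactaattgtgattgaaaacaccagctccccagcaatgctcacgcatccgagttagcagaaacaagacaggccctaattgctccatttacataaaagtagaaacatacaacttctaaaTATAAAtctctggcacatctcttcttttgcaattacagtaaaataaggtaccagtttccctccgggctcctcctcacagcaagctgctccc

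Tgfb1 held GGGCGG 5 times and Tgfbr1 held it 2 times, and neither held TATAAA. Acvr1c, which was not higher, held GGGCGG 3 times before its first start, and a second RefSeq start of Tgfbr1 held CAGACA and no GGGCGG. Inhbb, whose stretch is not shown, was also higher in every Nelfb-/- library and held GGGCGG 1 time. Tgfbr2, whose groups overlapped, held none of the letters searched. Tgfb2 held TATAAA at 31 to 26 bases before its start and CAGACA at 204 to 199 bases before it. Inhba held TATAAA at 91 to 86 bases before its start, farther than in Tgfb2. Of 32851 stretches of the same length before RefSeq starts, 32.7% held GGGCGG, 12.4% held TATAAA and 17.1% held CAGACA. The AP-1 letters TGACTCA, held by 4.46% of all stretches, were found at 0 of the 9 starts of the 7 members in that table. The matches are a description of the letters in these windows.

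The question of the comparison was which of the 10 genes differed between CTL and Nelfb-/- cells. Called genes are those with a limma adjusted p no higher than 0.05, adjusted over all 16251 genes tested, and a difference of 2-fold or more, and log2 fold changes are of Nelfb-/- relative to CTL. Tgfbr1 was called higher and the other 9 genes were not called (1 of 10, against 11.2% of all genes tested). The 1 called gene was higher, as were 7.58% of all genes, and no member was called lower (3.64% of all genes) or was lower at an unadjusted p under 0.05. At any fold, Tgfb1 and Tgfbr1 passed the adjusted p (15.8% of all genes). In 5 of the 10 genes (Tgfb1, Tgfbr1, Inhba, Inhbb and Fst) the lowest Nelfb-/- library exceeded the highest CTL library, against 22% of all genes tested, and in none of the 10 were the groups apart with Nelfb-/- below, against 16.1% of all genes (38.1% in either direction). The log2 fold change was above 0 in 6 of the 10 genes and in 54.6% of all genes. The median log2 fold change was 0.38 over the 10 genes and 0.068 over all genes tested.

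**Figure D1:**
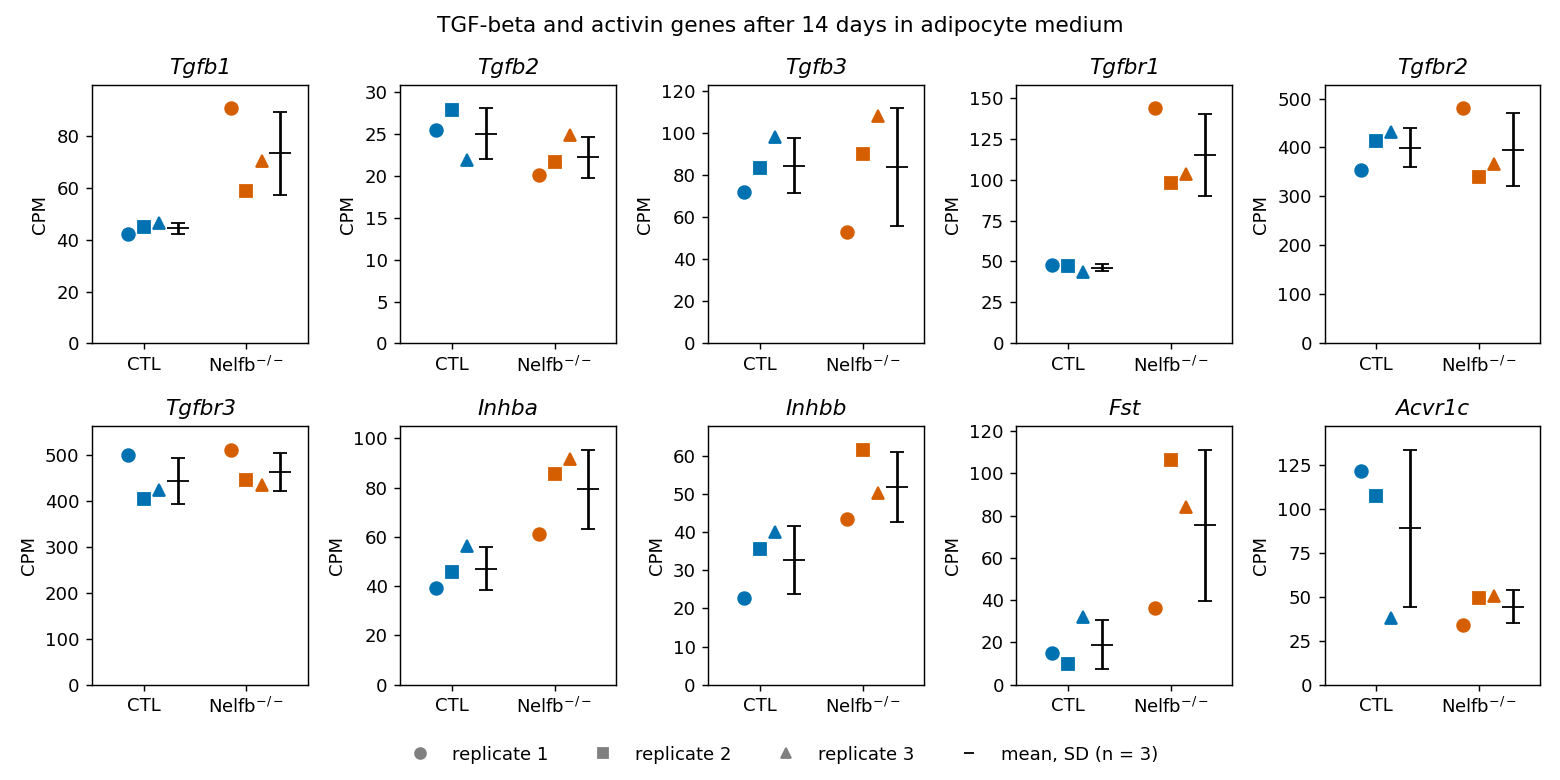
CPM (y axis, from 0) of the 10 genes in each CTL and Nelfb-/- library (symbols mark the replicate number), with the mean and SD of each group (n = 3) to the right of its points. Tgfb1, Tgfbr1, Inhba, Inhbb and Fst have all 3 Nelfb-/- libraries above the CTL libraries, and the groups overlap in the other 5 genes.

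Tgfb1 (ENSMUSG00000002603, chromosome 7, 25687002 to 25705077), the best known ligand of the family in fibrosis and immune regulation, was at 42.3, 44.8 and 46.4 CPM in CTL and at 90.8, 59.0 and 70.6 CPM in Nelfb-/- cells. The CTL libraries lay close together, and Nelfb-/- replicate 1 was the highest of the 6. The log2 fold change was 0.70 (SE 0.18, 95% interval 0.27 to 1.13), a 1.62-fold difference with a limma adjusted p of 0.046, so that it passed the p but not the 2-fold threshold. The adjusted p ranged from 0.045 to 0.15 over 17 alternatives. Without Nelfb-/- replicate 1 the log2 fold change was 0.54 (adjusted p = 0.047), and the highest adjusted p was that without CTL replicate 1 (log2 fold change 0.66). Nelfb-/- replicate 1 also had the highest macrophage marker sum (6453 CPM, against 2052 and 3492 CPM in replicates 2 and 3). It had the highest skeletal muscle sum as well (19.0 CPM, against 14.9 and 13.5 CPM) and the lowest adipocyte sum of the 6 libraries (15816 CPM). The Schwann and keratinocyte sums, and the melanocyte sum without Mitf, were also higher in each Nelfb-/- library than in any CTL library. The part of all these cells in the Tgfb1 values was not tested.

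Tgfb2 (ENSMUSG00000039239, chromosome 1, 186622792 to 186705989) encodes a ligand that needs betaglycan for efficient receptor binding. It was at 25.5, 27.9 and 21.9 CPM in CTL and at 20.1, 21.7 and 24.9 CPM in Nelfb-/- cells. The groups overlapped, with a log2 fold change of -0.17 (95% interval -0.56 to 0.21, limma adjusted p = 0.50). It lay between -0.27 (without CTL replicate 3) and -0.093 (without CTL replicate 2) when 1 library was left out, with adjusted p of 0.25 and 0.82. Tgfb3 (ENSMUSG00000021253, chromosome 12, 86056745 to 86079041), a ligand with a role in palate fusion and scar formation, was at 71.9, 83.6 and 98.4 CPM in CTL and at 53.2, 90.0 and 108 CPM in Nelfb-/- cells. The lowest and the highest value both belonged to Nelfb-/- cells, with a log2 fold change of -0.064 (95% interval -0.74 to 0.61, limma adjusted p = 0.90). The intervals leave room for a change of either sign in both genes.

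Tgfbr1 (ENSMUSG00000007613, chromosome 4, 47353222 to 47414931), the type I receptor kinase that phosphorylates Smad2 and Smad3, was at 48.0, 47.3 and 43.6 CPM in CTL and at 143, 98.1 and 103 CPM in Nelfb-/- cells. The lowest Nelfb-/- library was above the highest CTL library, and Nelfb-/- replicate 1 was the highest. Tgfbr1 rose by 1.29 on the log2 scale (SE 0.18, 95% interval 0.87 to 1.71), 2.45-fold, with a limma adjusted p of 0.0081. It was called in all 17 alternatives (log2 fold change 1.12 to 1.39, adjusted p 0.0076 to 0.045), where the smallest change was that without Nelfb-/- replicate 1 (1.12, adjusted p = 0.0094). The macrophage marker sum was also highest in Nelfb-/- replicate 1 and lowest in CTL, and the Schwann, skeletal muscle and keratinocyte marker sums, and the melanocyte sum without Mitf, were also higher in each Nelfb-/- library than in any CTL library. The part of these cells in the Tgfbr1 values was not tested.

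Tgfbr2 (ENSMUSG00000032440, chromosome 9, 116084293 to 116175360), the type II receptor that binds the ligand first, was at 355, 414 and 431 CPM in CTL and at 480, 339 and 367 CPM in Nelfb-/- cells. The groups overlapped, with Nelfb-/- replicate 1 the highest and replicate 2 the lowest of the 6 libraries. The log2 fold change was -0.028 (95% interval -0.48 to 0.43, limma adjusted p = 0.94). Tgfbr3 (ENSMUSG00000029287, chromosome 5, 107106570 to 107289629), the betaglycan coreceptor, which shares exon sequence with the low gene model Gm43422 (0.671 to 3.13 CPM), was at 501, 406 and 424 CPM in CTL and at 512, 445 and 435 CPM in Nelfb-/- cells. CTL replicate 1 and Nelfb-/- replicate 1 were high and the other 4 libraries lay close to each other. Its log2 fold change of 0.068 (95% interval -0.33 to 0.47, limma adjusted p = 0.81) was the median of all genes tested.

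**Figure D2:**
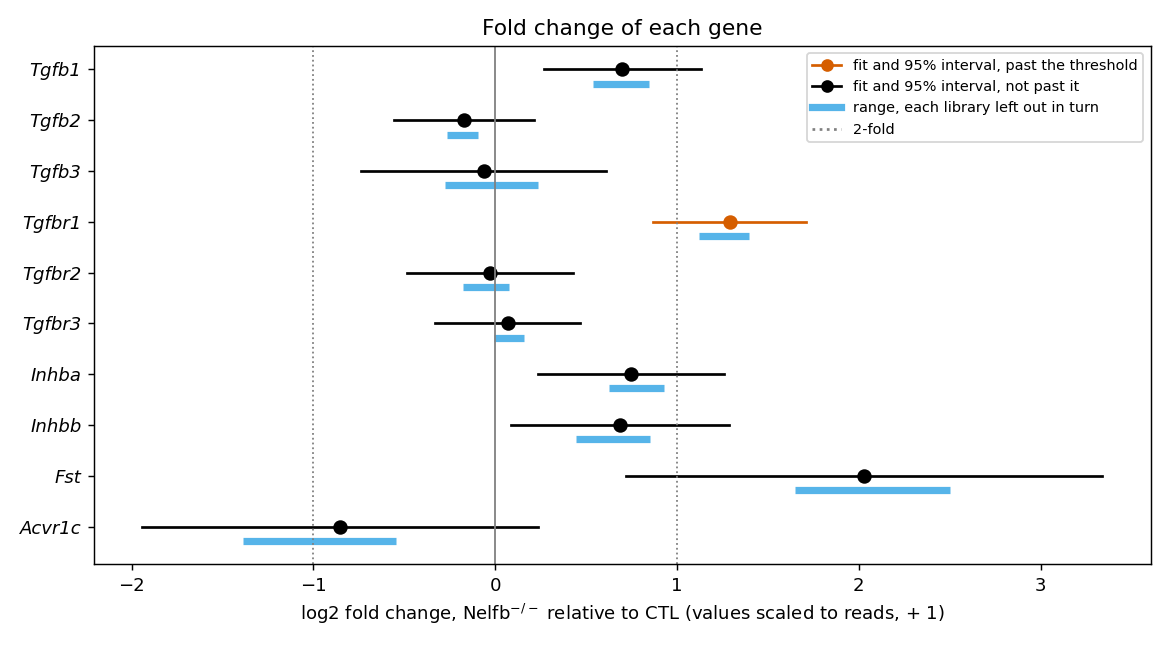
Log2 fold change (x axis) of each gene in Nelfb-/- relative to CTL cells, with the fit and its 95% interval (point and thin line) and, as a thick line, the range of fits that each left out 1 library. Only Tgfbr1, at 1.29 with an interval of 0.87 to 1.71, passed the threshold. The dotted lines are 2-fold, and the interval of Fst (0.72 to 3.34) is the widest.

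As Tgfbr2 was at a like level in both groups and Tgfbr1 was not, their ratio within each library differed. Per kb of exon, Tgfbr2 was 5.90, 6.99 and 7.89 times the level of Tgfbr1 in the CTL libraries and 2.67, 2.76 and 2.84 times in the Nelfb-/- libraries. The groups did not overlap, and the values of the Nelfb-/- libraries were close to each other. The ratio is a description, since Tgfbr1 is one of its parts.

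The activin subunits were higher in each Nelfb-/- library but were not called. Inhba (ENSMUSG00000041324, chromosome 13, 16011851 to 16031621), which encodes the subunit of activin A, was at 39.1, 45.6 and 56.4 CPM in CTL and at 61.2, 85.5 and 91.5 CPM in Nelfb-/- cells. The lowest Nelfb-/- library (replicate 1) was only a little above the highest CTL library (replicate 3). The log2 fold change was 0.75 (SE 0.21, 95% interval 0.24 to 1.26, limma adjusted p = 0.061), with an adjusted p of 0.027 to 0.21 over the alternatives. Inhbb (ENSMUSG00000037035, chromosome 1, 119415465 to 119422248), which encodes the subunit of activin B and is expressed in adipocytes, was at 22.7, 35.5 and 39.9 CPM in CTL and at 43.5, 61.6 and 50.2 CPM in Nelfb-/- cells. CTL replicate 1 was the lowest and the gap between the groups was small. Its log2 fold change was 0.69 (SE 0.25, 95% interval 0.088 to 1.28, limma adjusted p = 0.11). The value was 0.44 without CTL replicate 1 (adjusted p = 0.27) and 0.85 without CTL replicate 3 (adjusted p = 0.065), with an adjusted p of 0.059 to 0.29 over the alternatives. For both subunits, replicate 3 was the highest CTL library and replicate 1 the lowest Nelfb-/- library, as in the dermal fibroblast marker sum, which was mostly Col1a1 and Col1a2. Their groups were also apart, as in the macrophage, Schwann, skeletal muscle and keratinocyte marker sums and the melanocyte sum without Mitf. The part of all these cells in the Inhba and Inhbb values was not tested.

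Fst (ENSMUSG00000021765, chromosome 13, 114452290 to 114458951), follistatin, was at 14.8, 9.85 and 32.1 CPM in CTL and at 36.2, 106 and 84.0 CPM in Nelfb-/- cells. Nelfb-/- replicate 1 was near CTL replicate 3, and the other Nelfb-/- libraries were well above all others. Fst had the largest log2 fold change of the 10 genes, 2.03 (SE 0.55, 95% interval 0.72 to 3.34), 4.09-fold, with a limma adjusted p of 0.052, so that it was not called. Fst was called higher when CTL replicate 3 was left out (log2 fold change 2.50, adjusted p = 0.023) and when Nelfb-/- replicate 1 was left out (2.49, adjusted p = 0.028). Over all alternatives the adjusted p ranged from 0.023 to 0.17. The same libraries stood out in the dermal fibroblast marker sum, with CTL at 4269, 3731 and 13603 CPM and Nelfb-/- cells at 6248, 19987 and 22449 CPM, a sum that was mostly Col1a1 and Col1a2, and the part of these cells in the Fst values was not tested. Per kb of exon, Fst was at 0.528, 0.301 and 0.793 times the level of Inhba in CTL and at 0.825, 1.73 and 1.28 times in Nelfb-/- cells. By this measure it exceeded Inhba in Nelfb-/- replicates 2 and 3 alone. The measure rests on the length of all annotated exons, and in CPM Fst exceeded Inhba in Nelfb-/- replicate 2 alone (106 against 85.5 CPM). In Nelfb-/- replicate 3 Fst was at 84.0 CPM and Inhba at 91.5 CPM. The ratio of Tgfb1 to Tgfb3 per kb, 0.395, 0.360 and 0.316 in CTL, was 1.15 in Nelfb-/- replicate 1 and 0.439 and 0.438 in the other Nelfb-/- libraries.

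**Figure D3:**
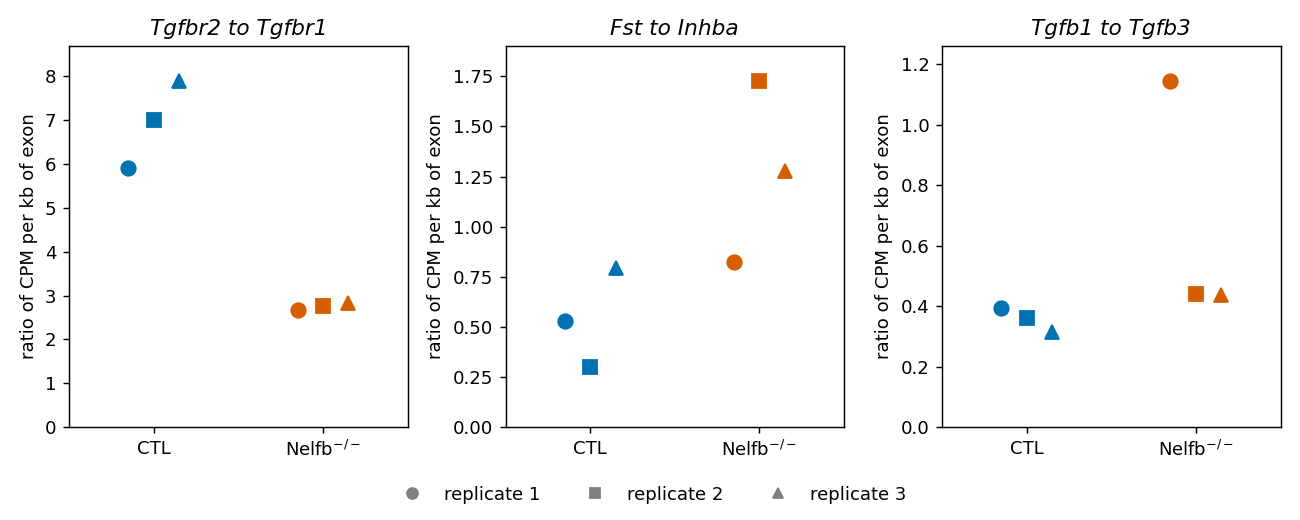
Ratio of CPM per kb of exon (y axis, from 0) between genes of the same library, for CTL and Nelfb-/- cells (symbols mark the replicate number). The ratio of Tgfbr2 to Tgfbr1 is 5.90 to 7.89 in CTL and 2.67 to 2.84 in Nelfb-/- cells, and that of Tgfb1 to Tgfb3 is high (1.15) in Nelfb-/- replicate 1.

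Acvr1c (ENSMUSG00000026834, chromosome 2, 58267453 to 58357895) was at 121, 107 and 37.7 CPM in CTL and at 33.6, 49.1 and 50.4 CPM in Nelfb-/- cells. CTL replicates 1 and 2 were high, and CTL replicate 3 lay among the Nelfb-/- libraries. The log2 fold change was -0.85 (SE 0.46, 95% interval -1.94 to 0.24, limma adjusted p = 0.25). Leaving out CTL replicate 3 gave -1.38, and the gene was then called lower (adjusted p = 0.013), whereas leaving out CTL replicate 1 gave -0.54 (adjusted p = 0.55). These are the ends of the range over the alternatives. The adipocyte marker sum was likewise lowest in replicate 3 among CTL libraries (39658, 36131 and 23618 CPM), near the Nelfb-/- libraries (15816, 24132 and 20281 CPM), and its part in the Acvr1c values was not tested.

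**Figure D4:**
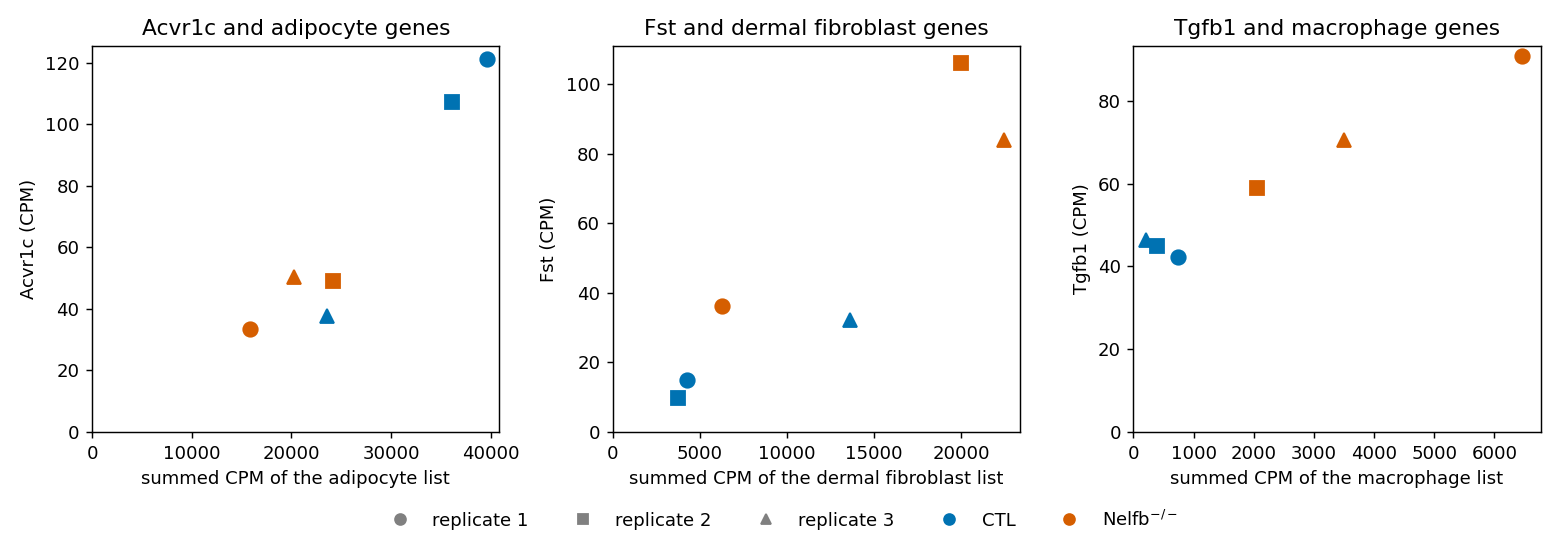
CPM of Acvr1c, Fst and Tgfb1 (y axes) against the summed CPM of the adipocyte, dermal fibroblast and macrophage markers (x axes) in the 6 libraries (colour is the group, symbols the replicate number). CTL replicate 3 lies with the Nelfb-/- libraries for Acvr1c, at 37.7 CPM, and Nelfb-/- replicate 1 has the highest macrophage sum, 6453 CPM.

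Levels between genes were compared per kb of exon. In CTL cells the highest was Tgfbr3 (67.7 ± 7.70 CPM per kb, SD, n = 3), followed by Tgfbr2 (48.8 ± 4.86) and Tgfb3 (25.0 ± 3.92), whose ranges did not overlap with each other or with the next gene. Acvr1c (9.55 ± 4.82), Tgfb1 (8.83 ± 0.411), Inhbb (7.69 ± 2.10), Inhba (7.36 ± 1.37) and Tgfbr1 (7.08 ± 0.367) followed, and neighbours in this order overlapped. Tgfb2 (4.33 ± 0.519) and Fst (4.13 ± 2.55) were the lowest and also overlapped. In Nelfb-/- cells the first 3 places were the same (70.9, 48.3 and 24.8 CPM per kb), while Tgfbr1 (17.6 ± 3.80) and Fst (16.4 ± 7.78) came next, with ranges that overlapped with those of Tgfb3 and Tgfb1. They were followed by Tgfb1 (14.6 ± 3.20), Inhba (12.4 ± 2.51) and Inhbb (12.2 ± 2.15), which overlapped. Acvr1c (4.77, from 3.62 to 5.42) and Tgfb2 (3.84 ± 0.420) were the lowest of the 10. The genes whose log2 values across the 6 libraries were most like those of Tgfbr1, the called member, were Abitram (Pearson's r 0.998), Dhx38 (0.998) and Shkbp1 (0.997). In all, 597 of 16250 genes compared had an r above 0.95, and the 6 points share the genotype difference.

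The other genes of the pathway were taken from a list of 70, of which 59 were in the table and tested. Of these, 10 were called higher and none lower by limma (16.9%, against 11.2% of all genes tested in either direction and 7.58% higher), and 21 were higher and 6 lower at an unadjusted p under 0.05. Their median log2 fold change was 0.39, against 0.068 over all genes. The count was 3 without CTL replicate 1, CTL replicate 2, Nelfb-/- replicate 2 or Nelfb-/- replicate 3 (Itgb8, Lrrc32 and Nrros each time), in fits that called 5.35%, 4.66%, 5.83% and 2.63% of all genes. It was 16 without CTL replicate 3, where 15.2% of all genes were called and Bambi, Cdkn2b, Fbn1, Itgav, Smad3 and Snai2 were called higher as well. Without Nelfb-/- replicate 1 it was 13 (11 higher, 2 lower, 12.1% of all genes), where Junb was not called, Bambi and Fbn1 were called higher and Acvr2b and Tgif1 lower. Fbn1, Itgav, Acvr2b and Tgif1 are named here for these calls, after their values were seen.

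In the group of latency and activation, 4 of 13 genes were called, all higher (7.58% of all genes). Itgb8, an integrin subunit that frees latent TGF-beta, was at 2.07, 2.05 and 2.92 CPM in CTL and at 60.3, 31.3 and 19.8 CPM in Nelfb-/- cells, and rose by 3.83 on the log2 scale (SE 0.41, limma adjusted p = 0.0050). Nrros, which holds latent TGF-beta on macrophages and microglia, was at 6.54, 2.52 and 2.99 CPM in CTL and at 53.3, 26.8 and 41.4 CPM in Nelfb-/- cells, a rise of 3.39 (SE 0.42, adjusted p = 0.0064). Lrrc32, which encodes the latent TGF-beta anchor GARP, was at 35.5, 39.2 and 41.1 CPM in CTL and at 101, 92.8 and 87.1 CPM in Nelfb-/- cells, a rise of 1.28 (SE 0.13, adjusted p = 0.0042). In these 3 genes the groups were well apart, and all 3 were called in each alternative. Ltbp2, a latency-protein relative that binds fibrillin, was at 50.1, 51.6 and 128 CPM in CTL and at 173, 504 and 390 CPM in Nelfb-/- cells, and rose by 2.23 (SE 0.51, adjusted p = 0.033). Its call was lost in the gene-by-gene model and in the 4 fits named above, and as in the dermal fibroblast marker sum CTL replicate 3 was the highest CTL library and Nelfb-/- replicate 1 the lowest Nelfb-/- library. Furin, the protease that cuts the TGF-beta precursor, passed the p (adjusted p = 0.010) but not 2-fold (log2 fold change 0.76), and Thbs1, an activator of latent TGF-beta, had a log2 fold change of 1.12 at an adjusted p of 0.062 and was called higher in 3 alternatives (no abundance trend, voom weights and the gene-by-gene model). The macrophage marker sum was higher in each Nelfb-/- library than in any CTL library, and its part in the Nrros and Itgb8 values was not tested, nor was that of the fibroblast markers in the Ltbp2 values.

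Of 20 known transcriptional targets of TGF-beta, 5 were called higher (7.58% of all genes), and none of the 5 was called in the 4 fits above that left 3 pathway genes called. Junb was also not called without Nelfb-/- replicate 1 or with no abundance trend, and a gene-by-gene model without moderation called Il11 alone of the 5, which was in turn not called on the log2(CPM + 1) scale. They were Tgfbi (2.43, SE 0.57), the matrix gene first found as a TGF-beta-induced transcript, Cdh2 (2.17, SE 0.48), which encodes N-cadherin, Il11 (2.02, SE 0.38), a cytokine of fibroblasts, Fn1 (1.41, SE 0.34), which encodes fibronectin, and Junb (1.41, SE 0.34), an AP-1 subunit, with limma adjusted p of 0.019 to 0.038. Fn1 was at 1560, 1288 and 2335 CPM in CTL and at 3636, 5007 and 4874 CPM in Nelfb-/- cells, while Il11 had only 6 to 18 reads in CTL and 31 to 41 reads in Nelfb-/- libraries. In all 5 genes CTL replicate 3 was the highest CTL library, as in the dermal fibroblast marker sum. Nelfb-/- replicate 1, the lowest Nelfb-/- library in that sum, was also the lowest for Tgfbi, Cdh2 and Fn1. It was the highest for Junb (146, 136 and 122 CPM), and Il11 was lowest in Nelfb-/- replicate 3 (1.75, 1.80 and 1.67 CPM). The sum was mostly Col1a1 and Col1a2 and so not independent of the targets, since Col1a1 is on both lists. The part of the fibroblast markers in these values was not tested. Snai2 (1.21, adjusted p = 0.074) and Cdkn2b (1.04, adjusted p = 0.12) were not called. Acta2 (log2 fold change -0.14) and Tagln (0.084), which encode contractile proteins and were named after their values were seen, were not called either and had overlapping groups.

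Among the other ligands Gdf11, an activin-like factor, was called higher (1.18, SE 0.29, limma adjusted p = 0.040), with CTL at 2.44, 2.57 and 4.05 CPM and Nelfb-/- cells at 5.31, 7.39 and 7.71 CPM, whereas Lefty1 (-0.58) and Inha (-0.21) were not. Gdf11 was also not called with upper-quartile scaling, on the log2(CPM + 1) scale or in the gene-by-gene model. No gene of the 6 other receptors and coreceptors was called by limma (2 higher and 2 lower at an unadjusted p under 0.05), and Cd109, a coreceptor that lowers TGF-beta signalling, had a log2 fold change of -0.87 (adjusted p = 0.014, under 2-fold) and Acvr2a, an activin type II receptor, one of 0.64 (adjusted p = 0.078). None of the 4 Smad genes and anchor was called (1 higher at an unadjusted p under 0.05), where Smad3 had 0.94 (adjusted p = 0.020, under 2-fold) and Zfyve9, which encodes the Smad anchor SARA, had -0.21. None of the 12 intracellular inhibitors was called (2 higher and 3 lower at an unadjusted p under 0.05), where Ski, a corepressor of Smads, had 0.68 (adjusted p = 0.031, under 2-fold) and Bambi, a decoy receptor, had 1.94 (adjusted p = 0.061). Fstl3, the follistatin relative that was tested, had 0.099 (adjusted p = 0.91).

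**Figure D5:**
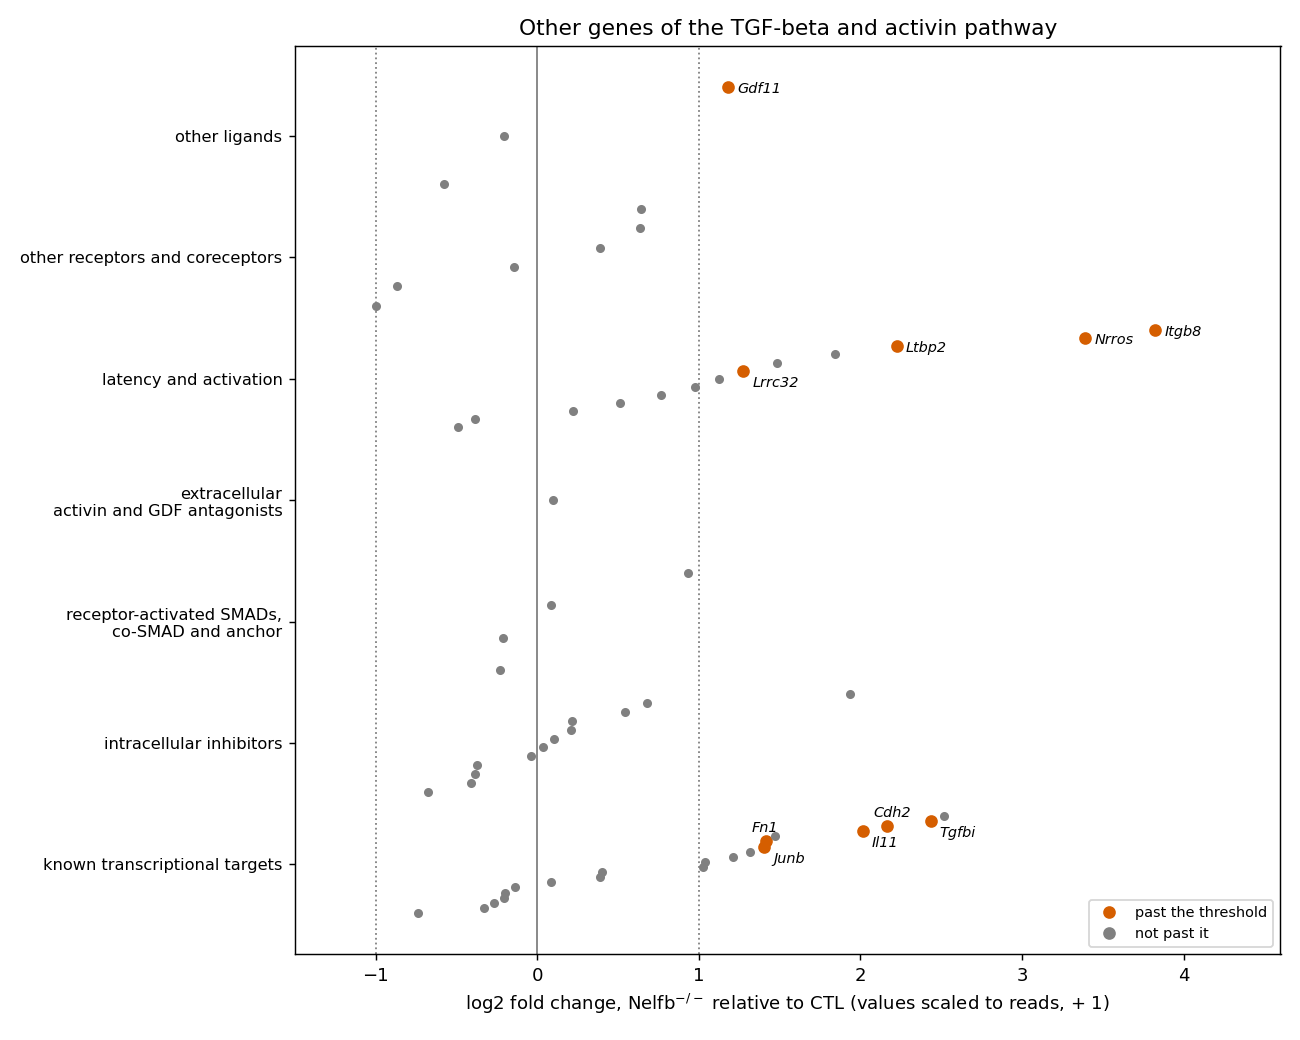
Log2 fold change (x axis, Nelfb-/- relative to CTL) of the 59 tested genes of the pathway list, 1 point a gene, in rows by role and spread vertically within a row to be seen. The 10 called genes, named, are all higher, from Gdf11 at 1.18 to Itgb8 at 3.83, and dotted lines mark 2-fold.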

How the data were processed

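RNA-seq was analysed in 3 CTL and 3 Nelfb-/- libraries, from a table of 17924 genes. The values deposited by the authors are CPM, made from reads aligned to mm10 with STAR (2.7) and processed in Partek (9.0.20.0202), as the submitters' processing notes name them. The counting and its strand setting are not given in the sources used here, so reads of overlapping antisense genes cannot be told apart for Tgfb2, Tgfb3, Fst and Acvr1c. Each column summed to 1e+06 after an offset of 0.0001 was subtracted. Low values rose in steps of 1 read, which gave the depth, but only 70.1% to 73.0% of values up to 20 reads were whole (within 0.02 reads), so that no count test was run. Ensembl IDs and exon lengths were from GENCODE vM21 (GRCm38), in which 17520 genes were matched by name. The exon length of a gene was that of all its annotated exons, without counting shared bases again.

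CPM were multiplied by the geometric mean depth (22.3 M, M for 1e+06), and log2 values with a pseudocount of 1 read were tested with limma (3.58.1, R 4.3.3, abundance trend, two-sided) in genes whose mean reached 10 reads. P-values were adjusted by Benjamini and Hochberg over all genes tested. Fold changes on this scale are slightly too small for low genes. The script was tested on simulated data. The 17 alternatives changed the pseudocount, filter, scaling, variance model or libraries. The members, lists and tests were chosen with earlier results of these data known. Named pathway genes were those called, and at most 2 more of each group with the smallest adjusted p, and Acta2, Tagln, Fbn1, Itgav, Acvr2b and Tgif1 were named outside this rule after their values were seen. The 3 genes most like a called member were named. Members without a sequence in the promoter table were Tgfb3, Tgfbr3 and Fst. Protein sequences were not used here.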

Additional observations from a re-analysis of the deposited data

How the results depend on the processing

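Of the 10 genes, Tgfb1, Tgfb2, Tgfbr1, Inhba and Inhbb kept their direction and their side of the threshold in all 17 alternatives. Fst and Acvr1c kept their direction, and the calls that they gained are given with their values above and below. Directions turned for genes near 0, for Tgfbr3 with upper-quartile scaling (-0.0019) and without Nelfb-/- replicate 1 (-0.0056), for Tgfb3 without CTL replicate 3 (0.051) or Nelfb-/- replicate 1 (0.23), and for Tgfbr2 without CTL replicate 3 (0.028), Nelfb-/- replicate 2 (0.074) or Nelfb-/- replicate 3 (0.018). With each library left out in turn, Tgfbr3 ranged from -0.0056 to 0.16, Tgfb3 from -0.28 to 0.23 and Tgfbr2 from -0.18 to 0.074. Upper-quartile scaling moved the median of all genes from 0.068 to -0.0016, and Tgfbr3 with it. For the other turns the cause was not tested.

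A gene-by-gene model with no moderation of variances called 684 genes (438 higher, 246 lower) in place of 1824 (1232 higher, 592 lower), and 5 of the pathway list, all 5 higher. With each library left out in turn, all called genes ranged from 426 (without Nelfb-/- replicate 3) to 2479 (without CTL replicate 3), higher ones from 290 to 1703 and lower ones from 136 to 776. Over the same settings 1 to 3 of the 10 genes were called (1 to 2 higher, 0 to 1 lower), and 3 to 16 of the pathway list (3 to 16 higher, 0 to 2 lower, the 2 without Nelfb-/- replicate 1).

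CTL and Nelfb-/- libraries share the numbers 1 to 3, and same-numbered libraries deviated from their group means with correlations of 0.52, -0.39 and 0.52. In this measure 1 of 3 CTL and 2 of 3 Nelfb-/- libraries correlated best with their own number. CTL replicate 2 went with Nelfb-/- replicate 1 (0.48), and CTL replicate 3 went with Nelfb-/- replicates 2 and 3 (0.54 and 0.52). With 3 libraries a group these values cannot decide whether the numbers pair the samples. With the replicate number as a block, 2 of the 10 genes were called (2 higher, Tgfbr1 and Fst), Fst at a log2 fold change of 2.03 (adjusted p = 0.030), and 14 of the pathway list (not Fn1), in a fit that called 13.4% of all genes. With 3 libraries a group, the intervals of Tgfb2, Tgfb3, Tgfbr2 and Tgfbr3 lay between -0.74 and 0.61 on the log2 scale, so that changes within each gene's own interval are not excluded.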
